A study of Solanum lycopersicum with 4 samples.

Results

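The transcriptome of wild type tomato pericarp was compared between red ripe fruits, taken 7 days after breaker (B+7), and mature green (MG) fruits. The comparison rests on 2 of the 4 arrays of the study, the WT B+7 array and the WT MG array, and covers 10038 of the 10209 probe sets on each. The 108 control probe sets and the 63 reporter probe sets were left out. A probe set is a group of short oligonucleotides that measures one transcript, and its value is a log2 signal. Of the probe sets analysed, 909 carry a gene in the platform annotation, which makes 803 genes, and the other 9129 have no name here.

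The study compared fruits of AtJUB1-OX and wild type tomato (Solanum lycopersicum cv. Moneymaker) on GeneChip Tomato Genome Arrays, with 1 array for each of the 2 genotypes at each stage. AtJUB1-OX is a transgenic line that expresses the Arabidopsis NAC transcription factor JUNGBRUNNEN1 fused to GFP under the constitutive CaMV 35S promoter, and WT carries no transgene. The tissue was the fruit wall, and neither the number of fruits behind an RNA sample nor their pooling is given in the sources used here. With 1 array a stage there is no error between fruits, and no test was run.

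Fruits such as tomato make ethylene in a self-amplifying way as they begin to ripen, a behaviour called climacteric. MADS-box and NAC transcription factors such as RIN and NOR act upstream of autocatalytic ethylene synthesis. Chloroplasts turn into chromoplasts that store lycopene, the cell wall is loosened by pectin and hemicellulose enzymes, and aroma, sugars and acids change.

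The WT arrays differed at many probe sets. At B+7 compared to MG, 660 probe sets were at least 2-fold higher (6.58% of 10038) and 856 were at least 2-fold lower (8.53%). At least 8-fold differences were found at 80 probe sets with the higher signal at B+7 and at 131 with the lower signal at B+7, while at least 64-fold differences were found at 12 and 6. Among the 803 named genes, 101 were at least 2-fold higher (12.6%) and 92 at least 2-fold lower (11.5%), and these percentages are the background against which the counts in gene groups below can be read.

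Several technical values moved with the stage, and their part in the differences was not tested. The median log2 signal was 9.76 at B+7 and 9.75 at MG. The 21 bioB, bioC and bioD spike probe sets, which report RNA added in fixed amounts, had a median difference of 0.21 with a range of 0.087 to 0.35. The highest value was at a bioB probe set and the lowest at a brighter bioD probe set. Brighter still, the cre controls, which were not among the 21, differed by 0.011 to 0.071. To set the spikes equal, the median of 0.21 was taken off all probe sets alike, although the spike difference was smaller at brighter signals. With this shift, 496 probe sets were at least 2-fold higher and 1064 lower. Of the called probe sets, 31.8% were then higher, against 43.5% as deposited. The log2 gap between the 3' and 5' probe sets, a measure of RNA integrity, was 3.76 at B+7 and 4.22 at MG for EF1a. It was 2.43 at B+7 and 2.68 at MG for ubiquitin, 1.97 at B+7 and 1.89 at MG for actin, and 0.64 at B+7 and 0.59 at MG for GAPDH. The EF1a gap depends on the 5' probe set. The one used had 9.04 at B+7 and 8.65 at MG, while another had 10.92 at B+7 and 10.96 at MG. Reporter probe sets target transgene sequences, and their 95th percentile, 5.53 at B+7 and 5.07 at MG, is used as the background level of each array. Where a gene lay at or below it at 1 stage, the fold is a lower bound taken against that level. Where 1 gene was measured by several probe sets (82 genes, 188 probe sets), their stage differences had a pooled SD of 0.61. It was 0.23 for probe sets brighter than the median (36 genes) and 0.74 for the others (40 genes).

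**Figure D1:**
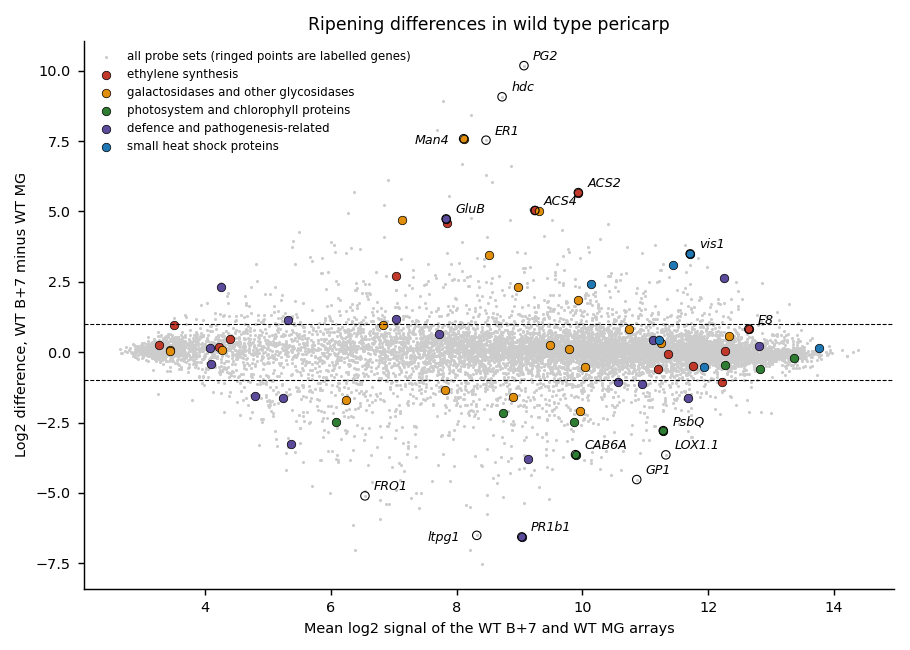
Log2 difference between WT B+7 and WT MG (vertical axis) against the mean log2 signal of both arrays (horizontal axis) for 10038 probe sets, with the genes of 5 lists in colour and labelled genes ringed. Dashed lines mark 2-fold, and PG2 (10.18), hdc (9.08) and Man4 (7.58) lie at the top while PR1b1 (-6.56) and ltpg1 (-6.51) lie near the bottom.

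The ripening stage given in the labels was checked with genes that mark it. PG2, the fruit polygalacturonase that depolymerizes pectin in ripe fruit, had a log2 signal of 14.16 at B+7, against 3.98 at MG, where it lay below the background level, so it was at least 545-fold higher at B+7. Psy1 and RIN were higher at B+7 too, and 5 of 8 photosystem genes were lower, as described below. E8, an ethylene-responsive dioxygenase gene widely used as a ripening marker, had 13.06 at B+7 and was already at 12.23 at MG. The MG fruits thus had a strong signal of this marker while PG2 was at background.

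Among the ripening regulators, 3 of 9 measured genes were at least 2-fold higher at B+7 and none was lower, with a list median of 0.27 against a median of 0.04 over all probe sets. RIN (NCBI gene 543708), the MADS-box factor gene that is mutated in non-ripening rin fruits, had a log2 signal of 13.56 at B+7 and 11.39 at MG, a 4.51-fold difference. NOR (gene 778200), the NAC factor of the non-ripening mutant, had 11.43 at B+7 and 9.96 at MG, a 2.78-fold difference. TDR4, a FRUITFULL-type MADS-box factor, had 13.69 at B+7 and 12.55 at MG, and its 2.19-fold difference passes 2-fold as deposited but is 0.93 on the log2 scale with the spikes set equal. All 3 of these regulators thus had signals well above background in mature green fruits already.

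The other regulators changed less. NAC1 was 0.88 higher on the log2 scale at B+7, and MADS1 was 0.27 higher. TAGL1 and AG1, AGAMOUS-type MADS-box genes with roles in carpel and fruit development, differed by -0.05 each, and TM5, a SEPALLATA-type gene, differed by -0.18. TAGL1 had a log2 signal of 12.79 at B+7 and 12.84 at MG, a high and nearly equal signal at both stages. AGL11 was below background on both arrays.

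Ethylene synthesis genes split by family member. Of 14 measured genes, 4 were at least 2-fold higher at B+7 and 1 was lower. ACS2 (gene 606304) and ACS4, the 1-aminocyclopropane-1-carboxylate (ACC) synthases of autocatalytic ethylene production, led the list. ACS2 had a log2 signal of 12.77 at B+7 and 7.10 at MG, a difference of 5.67, the largest among the named genes above the median signal. ACS4 had 11.76 at B+7 and 6.73 at MG, a 32.8-fold difference. Both were above background at MG, so these folds are measured on both sides.

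ACS1A, a synthase active in green fruit, had 8.40 at B+7 and 5.69 at MG, so it too was higher in the ripe fruit. ACS6, also known from the green fruit, had 11.33 at B+7 and 11.40 at MG. ACS3, ACS5, ACS7 and ACS8 were below background at both stages. The stage differences of the ACC synthases therefore ranged from -0.08 for ACS6 to 5.67 for ACS2 on the log2 scale within the family.

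The ACC oxidases, which catalyse the last step, differed in another way. ACO5 had a log2 signal of 10.13 at B+7 and 5.56 at MG, a 23.9-fold difference from a MG signal close to background. ACO6 had 12.29 at B+7 and 12.26 at MG, and ACO4 had 11.52 at B+7 and 11.99 at MG, so neither was higher in the ripe fruit. SAM1, a synthetase of the precursor S-adenosylmethionine, had 11.70 at B+7 and 12.75 at MG and was the member that was at least 2-fold lower, by 1.04 on the log2 scale. SAM3 was lower by 0.60.

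Of the 6 ethylene receptor genes ETR1 to ETR6, 4 were at least 2-fold higher in the ripe fruit. Of 15 perception and signalling genes, 5 were at least 2-fold higher at B+7 and none was lower, with a median difference of 0.48. ETR3, the Never-ripe receptor, had a log2 signal of 13.31 at B+7 and 11.42 at MG. ETR4 had 13.04 at B+7 and 11.29 at MG. These receptors are negative regulators that hold the pathway off in the absence of ethylene.

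ETR6 and ETR5 were higher by 1.69 and 1.25 on the log2 scale, from MG signals of 8.29 and 8.64. ETR2 was 0.79 higher, within 2-fold, and ETR1 had 11.60 at B+7 and 11.49 at MG. CTR1, the kinase that acts with the receptors to repress signalling, had 9.90 at B+7 and 8.68 at MG, while its relatives CTR3 and CTR4 differed by 0.04 and 0.55. Downstream, EIN2 and the EIN3-like factors EIL1, EIL3 and EIL4 stayed within 2-fold, between -0.07 and 0.48, and EIL2 was 0.56 lower. The 2-fold differences were at the receptors and CTR1, and none of the measured EIN2 and EIL genes reached 2-fold.

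Of 15 genes of the ethylene response factor family, 4 were at least 2-fold higher at B+7 and 1 was lower, with a median of 0.60. ERF2 had a log2 signal of 12.67 at B+7 and 10.79 at MG, a 3.68-fold difference. ERF-H1 had 8.23 at B+7 and 5.52 at MG, TERF1 had 10.30 at B+7 and 8.77 at MG, and CBF1, of the cold-responsive branch, had 10.26 at B+7 and 8.65 at MG. JERF3 was just within 2-fold at 0.98. PTI6, which was identified as a partner of the Pto resistance kinase, had 9.28 at B+7 and 10.39 at MG and was the member that was lower. The related PTI4 and PTI5 differed by 0.71 and -0.66.

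The carotenoid genes that were at least 2-fold higher at B+7 act before or at the formation of lycopene, and none of the measured genes acting later reached 2-fold higher. In the list of 16 genes, 3 were at least 2-fold higher and 1 was lower. Psy1 (gene 543988), the fruit phytoene synthase that commits isoprenoids to carotenoids, had a log2 signal of 14.08 at B+7 and 11.64 at MG, a 5.44-fold difference. A second Psy1 probe set gave 13.05 at B+7 and 9.24 at MG, and another, much dimmer one gave 7.23 at B+7 and 7.06 at MG. The size of the Psy1 difference thus depends on the probe set, from 0.17 to 3.81 on the log2 scale.

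DXS, the first enzyme of the plastid isoprenoid pathway, had 12.27 at B+7 and 10.88 at MG. ZDS, a carotene desaturase on the way to lycopene, had 11.61 at B+7 and 10.50 at MG, a difference of 1.11 that is 0.90 with the spikes set equal. PDS, the preceding desaturase, was 0.59 higher. ISPE, another plastid isoprenoid gene that was not in the list and was named after its value was seen, was 1.07 higher, or 0.87 with the spikes set equal. PSY2, the leaf phytoene synthase, was 0.42 higher and DXR 0.41 lower.

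LCY1, a lycopene cyclase, had 9.15 at B+7 and 9.92 at MG. ZEP, which converts zeaxanthin further, had 9.89 at B+7 and 10.67 at MG, so both were 0.78 lower on the log2 scale. CRTL-E-1, the epsilon cyclase of the lutein branch, had 4.20 at B+7 and 5.94 at MG. Its B+7 value was below background and its difference fell under 2-fold with a floor at the reporter level. NSY and the hydroxylase CrtR-b1 were higher by 0.72 and 0.50. The cleavage dioxygenases CCD1A and CCD1B and the abscisic acid gene NCED1 were within 2-fold, at -0.37, 0.03 and -0.21.

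Photosystem genes were lower in ripe fruit. Of 8 measured genes, 5 were at least 2-fold lower at B+7 and none was higher, and the median of -2.31 was the lowest of the lists with at least 3 genes. CAB6A, a light-harvesting chlorophyll a/b protein gene, had a log2 signal of 8.07 at B+7 and 11.71 at MG, a 12.5-fold difference. PsbQ, of the oxygen-evolving complex of photosystem II, had 9.89 at B+7 and 12.68 at MG. The photosystem I subunit gene psaD had 8.62 at B+7 and 11.11 at MG.

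CAB4 had 7.66 at B+7 and 9.80 at MG, and CAB5, at background in the ripe fruit, was at least 3.47-fold lower. The remaining genes, also of photosystem II, kept high signals. PSBO had 12.03 at B+7 and 12.48 at MG, PSBP had 12.53 at B+7 and 13.12 at MG, and PSBR had 13.25 at B+7 and 13.46 at MG. In bulk pericarp, fewer cells of a type and less RNA per cell cannot be told apart.

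**Figure D2:**
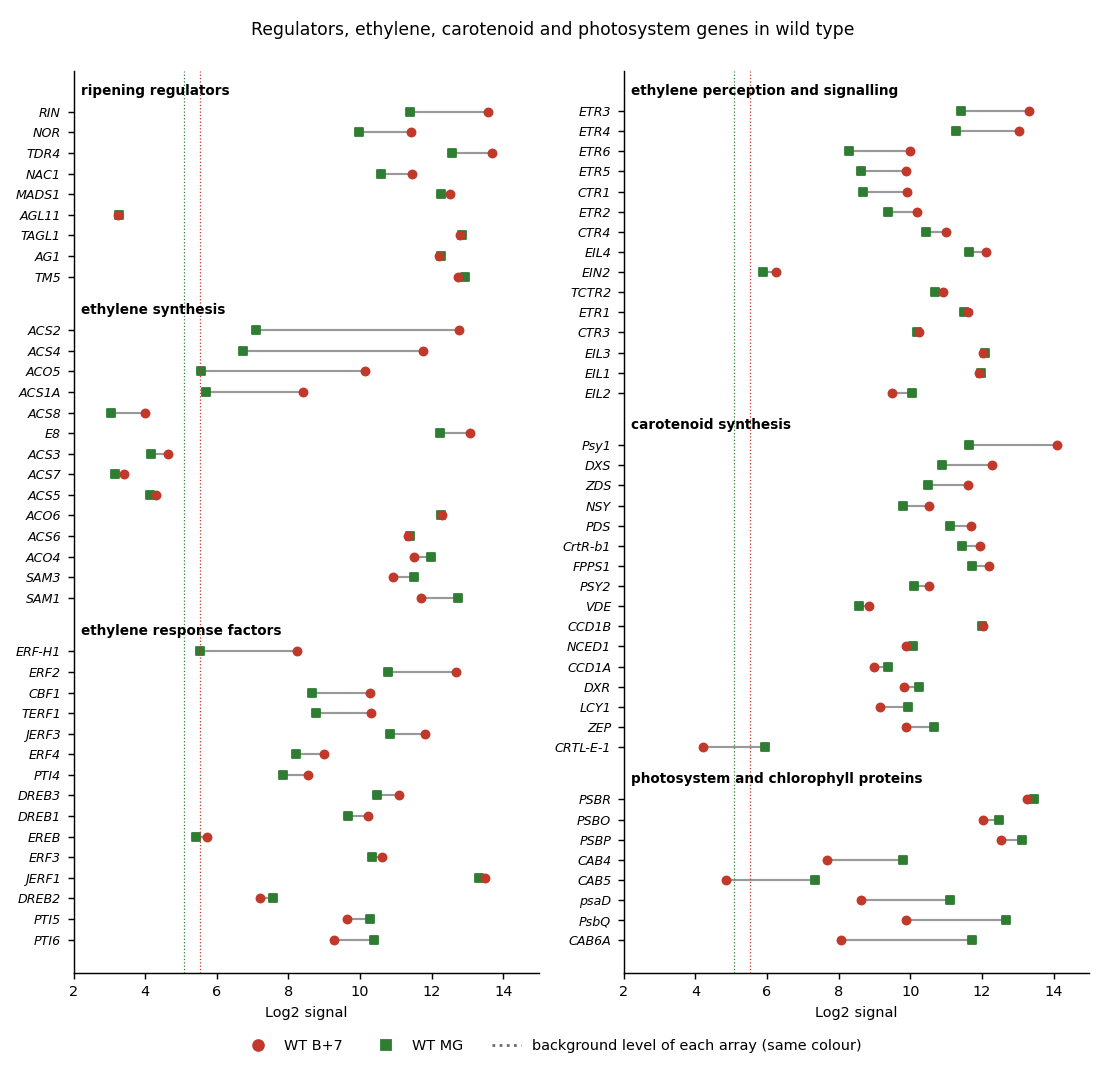
Log2 signal (horizontal axis) of each measured gene of 6 lists on the WT B+7 array (red circles) and the WT MG array (green squares), 1 array a stage, with dotted lines at the background level of each array. ACS2 and ACS4 have the longest upward lines of these lists, and CAB6A is 12.5-fold lower at B+7.

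Among pectin enzymes, a single gene was at least 2-fold higher at B+7. PG2 was higher at B+7 as given above, XOPG1 had a log2 signal of 8.36 at B+7 and 9.69 at MG and was the member at least 2-fold lower, and 7 of the 9 measured genes were within 2-fold. The abscission polygalacturonases TAPG1, TAPG2 and TAPG4 were below background on both arrays, and PGcat had 9.08 at B+7 and 9.23 at MG. PE1, a pectin methylesterase, had a log2 signal of 12.82 at B+7 and 13.62 at MG. PMEU1 had 12.17 at B+7 and 12.94 at MG, and PME2.1 had 11.46 at B+7 and 11.55 at MG. These methylesterases, which prepare pectin for polygalacturonase, thus had high signals at both stages and none was higher in the ripe fruit. GP1, whose synonym AroGP1 refers to aromatic amino acid-rich glycoproteins related to the polygalacturonase beta subunit, had 8.60 at B+7 and 13.13 at MG, a 23.0-fold lower signal in ripe fruit.

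Expansins, which loosen the wall without cutting it, showed opposite members. EXP1, the ripening expansin, had a log2 signal of 12.60 at B+7 and 10.39 at MG, a 4.63-fold difference. EXP5 had 10.69 at B+7 and 12.16 at MG, a 2.79-fold lower signal. EXP2 was below background at MG and at least 2.56-fold higher. EXPA3, at 11.53 in B+7 and 12.52 in MG fruits, lay at the 2-fold line and crosses it after median centring of the arrays. The other 8 expansins differed by between -0.63 and 0.42.

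Hemicellulose and galactan enzymes contained both the steepest increases of the wall genes after PG2 and several decreases. Of 20 glycosidase and glucanase genes, 6 were at least 2-fold higher at B+7 and 4 were lower, with a median of 0.29. Man4, an endo-beta-mannanase, had a log2 signal of 11.91 at B+7 and 4.32 at MG, below background, and was at least 114-fold higher. Man4, like TDR4 and CTR1, was read by a probe set of the type designed to match several related transcripts. Its relatives MAN1 and MAN2 were below background at both stages.

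Cel2, an endo-beta-1,4-glucanase of ripening fruit, had 11.82 at B+7 and 6.81 at MG, a 32.2-fold difference. Cel1 had 10.24 at B+7 and 6.79 at MG, a 10.9-fold difference. In the same family, CEL8 had 7.15 at B+7 and 8.49 at MG and cel7 was at least 2.96-fold lower, while Cel3 was 0.58 higher. The glucanase family therefore had members in both directions. XYL1, a xylosidase gene, was below background at MG and at least 21.2-fold higher, whereas LEXYL2 differed by 0.11.

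TBG4, the main ripening beta-galactosidase, had 10.14 at B+7 and 7.82 at MG, and TBG5 was 1.87 higher. TBG1, TBG2, TBG3 and TBG7 were higher by 0.27 to 0.98 and TBG6, known from growing fruit, was lower by 0.51. LeARF1, an alpha-L-arabinofuranosidase, had 8.93 at B+7 and 11.01 at MG, and the alpha-galactosidase AGAL had 8.10 at B+7 and 9.69 at MG. Enzymes that trim pectin side chains thus differed in sign between the beta-galactosidases TBG4 and TBG5 and the arabinofuranosidase.

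Of 12 xyloglucan remodelling genes, 3 were at least 2-fold higher at B+7 and 2 were lower. XTH9 had a log2 signal of 12.45 at B+7 and 9.94 at MG, and XTH16 had the reverse pattern with 9.90 at B+7 and 12.05 at MG. All 3 XTH16 probe sets were lower, by 2.15 to 2.35. XTH3 and the brassinosteroid-regulated BR1 were higher by 1.19 and 1.06, and both were within 2-fold with the spikes set equal. XTH5 had 13.54 at B+7 and 12.93 at MG, a high signal at both stages.

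Lipoxygenase genes differed in sign. LOX1.1, also called loxA, had a log2 signal of 9.50 at B+7 and 13.15 at MG, a 12.5-fold lower signal in the ripe fruit. TomloxE had 10.34 at B+7 and 7.89 at MG, and LOXB had 13.56 at B+7 and 12.28 at MG. The gene loxC, which supplies the green-leaf volatiles of fruit flavour, had 12.48 at B+7 and 10.96 at MG. The jasmonate-related loxD had 12.32 at B+7 and 10.94 at MG.

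In the volatile list as a whole, 5 of 11 genes were at least 2-fold higher at B+7 and 2 were lower. AAT, an alcohol acyltransferase of ester formation, had 13.43 at B+7 and 12.13 at MG. ADH2, the fruit alcohol dehydrogenase, had 13.56 at B+7 and 13.15 at MG, and HPL, the hydroperoxide lyase downstream of loxC, was 0.18 higher. ALPHA-DOX2, an alpha-dioxygenase that oxidizes fatty acids, had 9.80 at B+7 and 11.22 at MG.

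**Figure D3:**
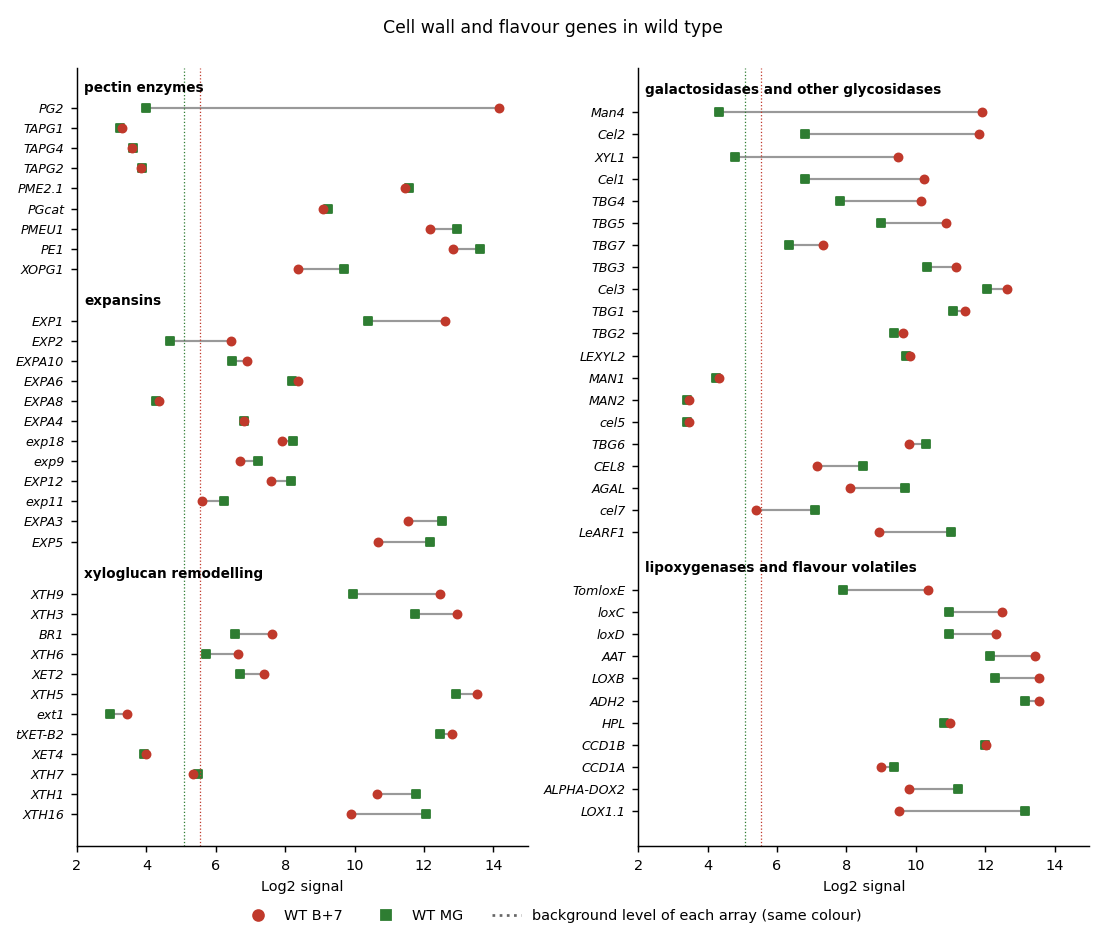
Log2 signal (horizontal axis) of each measured gene of 5 cell wall and flavour lists on the WT B+7 array (red circles) and the WT MG array (green squares), 1 array a stage, with dotted lines at the background levels. PG2, Man4 and XYL1 start below background at MG, while LOX1.1 is the volatile gene with the largest lower signal at B+7.

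Of 23 sugar metabolism genes, 1 was at least 2-fold higher at B+7 and 5 were lower, with a median of -0.05. The acid invertase AI, which splits sucrose in the vacuole, had a log2 signal of 14.12 at B+7 and 12.43 at MG, a 3.25-fold difference. The genes that were lower included subunits of ADP-glucose pyrophosphorylase, the enzyme of starch synthesis. AgpL1 had 8.06 at B+7 and 9.95 at MG, and AGPL3 had 7.10 at B+7 and 8.25 at MG, while the small subunit AGP-S2 was 0.21 higher. The sucrose synthase SUS2 was 1.13 lower, and sus3 was 0.85 higher. The hexose transporter HT1 was 1.47 lower and the wall invertase LIN7 1.71 lower.

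Organic and amino acid genes held 1 member that was higher and 4 that were lower among 12. PPCK2, a kinase that activates phosphoenolpyruvate carboxylase, had a log2 signal of 11.96 at B+7 and 8.22 at MG, a 13.3-fold difference, and PPCK1 was 0.33 lower. A malate dehydrogenase gene, mdh, had 10.69 at B+7 and 12.30 at MG, and the malic enzyme genes ME1 and ME2 were within 2-fold. GS2, the plastid glutamine synthetase, was at background in the ripe fruit and at least 5.25-fold lower.

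The remaining genes of this list that were lower are annotated as gad2 and GABA-TP2. RefSeq gives gad2 the synonyms 16DOX and GAME11 and GABA-TP2 the synonym GAME12, names used for enzymes of steroidal glycoalkaloid synthesis, the bitter defence compounds of green tomatoes. GABA-TP2 had 5.62 at B+7, close to background, and 10.18 at MG, a 23.7-fold lower signal. The probe set for gad2 had 7.60 at B+7 and 11.25 at MG, a 12.5-fold lower signal. The transaminase genes GABA-TP1 and GABA-TP3 differed by 0.11 and -0.61.

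Small heat shock protein genes had the highest list median, 1.43, with 3 of 6 genes at least 2-fold higher at B+7 and none lower. The gene vis1, which affects the viscosity of tomato juice, had a log2 signal of 13.46 at B+7 and 9.96 at MG, an 11.3-fold difference. The plastid protein gene HSP21 had 12.99 at B+7 and 9.90 at MG, an 8.54-fold difference. ER-SHSP, of the endoplasmic reticulum, had 11.35 at B+7 and 8.94 at MG. The cytosolic HSP17-6 had 13.83 at B+7 and 13.68 at MG, and the mitochondrial MTSHP was 0.52 lower, so the group was not uniform.

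Antioxidant genes hardly differed. Of 14 measured genes, 1 was at least 2-fold higher, the peroxidase CEVI-1, which was below background at MG and at least 2.25-fold higher. The others lay between -0.68 and 0.97, including superoxide dismutases with log2 signals near 13.98 at B+7 and 13.90 at MG for SODCC.1. The ascorbate peroxidases APX1 and APX2 and the dehydroascorbate reductase DHAR1 were lower by 0.33, 0.65 and 0.68. GSH1, which makes the first intermediate of glutathione, had 12.29 at B+7 and 10.40 at MG.

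Among 7 metal-binding genes, FRO1, an iron-chelate reductase, had a log2 signal of 3.99 at B+7 and 9.10 at MG and was at least 11.9-fold lower in the ripe fruit. The metallothionein MT2 was 1.21 lower, while LEMT1 had 13.86 at B+7 and 13.94 at MG. Metallothionein members thus differed by between -1.21 and -0.08 for MT2, MTA and LEMT1.

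Defence genes differed strongly in both directions. Of 18 genes, 5 were at least 2-fold higher at B+7 and 8 were lower, with a median of -0.12. PR1b1, a salicylic acid-responsive pathogenesis-related gene, had a log2 signal of 5.76 at B+7 and 12.32 at MG. Its signal was 94.4-fold lower in the ripe fruit, where it was close to background, so the size of this fold is uncertain. A second PR1b1 probe set was below background on both arrays, at 2.90 and 2.91, and adds no measurement. The subtilisin-like proteases P69B and P69A, also pathogen-induced, were lower as well, with 7.24 at B+7 and 11.03 at MG for P69B.

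In the other direction, GluB, a basic beta-1,3-glucanase, had 10.20 at B+7 and 5.47 at MG, a 26.7-fold difference from a MG signal close to background. NP24-I, an osmotin-like protein that accumulates in ripe fruit, had 13.57 at B+7 and 10.93 at MG, a 6.24-fold difference. The chitinases CHI3 and CHI17 were lower by 1.64 and 1.07 and CHI9 was 0.44 higher. The chitinase gene CHI14, below background at MG, was at least 1.76-fold higher. The stress-induced TSI-1 was higher by 1.17, or by 0.97 with the spikes set equal. PR-P2 was lower by 1.11. CEVI57 and TD2, below background at B+7, were at least 1.44-fold and 1.03-fold lower. PR5 was below background at both stages, so its difference of 2.30 carries no measured signal. PR5, CHI14, CEVI57 and TD2 are among the defence genes counted at 2-fold, and each fell under 2-fold with a floor at the reporter background.

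Jasmonate and wound genes were divided too, with 2 of 10 at least 2-fold higher and 3 lower. The arginase ARG2, which is wound-induced in leaves, had a log2 signal of 8.44 at B+7 and 12.16 at MG, and its 3 probe sets were lower by 2.68 to 4.15. OPR3, the reductase of jasmonic acid synthesis, had 10.05 at B+7 and 11.27 at MG, OPR1 had 7.63 at B+7 and 10.18 at MG, and opr2 had 10.76 at B+7 and 8.11 at MG. The receptor COI1 differed by 0.01 and the factor MYC2 by 0.44. ARG1 was 0.45 lower.

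Brassinosteroid and gibberellin genes are of interest in this study because AtJUB1 acts on both pathways. CYP85A1, a brassinosteroid C-6 oxidase, had a log2 signal of 13.26 at B+7 and 10.17 at MG, and a second probe set had 12.31 at B+7 and 8.27 at MG. The brighter probe set is of the type designed to match several related transcripts, so the share of each is unknown. RSI-1, of the gibberellin-stimulated protein family, had 11.87 at B+7 and 9.05 at MG.

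GAI, the DELLA repressor gene, had 7.32 at B+7 and 7.49 at MG. SPY differed by 0.19. GA3ox1, GA20OX1 and CPS of gibberellin synthesis were below background on both arrays, and GA3ox1 nonetheless counts among the 3 of 7 genes of this list that were at least 2-fold higher. The gibberellin 20-oxidase 20ox-3, which was not in the list and was named after its value was seen, had 11.40 at B+7 and 8.00 at MG, a 10.6-fold difference.

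Of 7 auxin response and transport genes, 3 were at least 2-fold lower at B+7 and 1 was higher. IAA17 was at background in the ripe fruit and at least 5.93-fold lower, IAA16 had a log2 signal of 6.04 at B+7 and 8.05 at MG, and IAA27 had 10.02 at B+7 and 11.93 at MG. IAA3, the member that was higher, had 12.88 at B+7 and 11.58 at MG. These 4 Aux/IAA repressor genes each had 2 probe sets that gave the same side of 2-fold. The auxin response factor ARF3 differed by 0.12, and IAA2 and IAA7 were below background on both arrays. The median of the 7 genes, -0.57, is 0.12 when values are floored at the reporter background. This floor is higher at B+7 (5.53) than at MG (5.07), so genes below both levels then read as higher at B+7.

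The other lists held few differences. THT1-3, a tyramine hydroxycinnamoyl transferase, had a log2 signal of 9.61 at B+7 and 6.09 at MG, while THT7-1 was 1.21 lower. The chalcone synthases CHS1 and CHS2 were below background at both stages. The dehydrin TAS14 had 10.87 at B+7 and 8.38 at MG. The blue-light receptor gene Cry1b had 7.83 at B+7 and 10.74 at MG, while PHYA, CRY2 and HY5 were within 2-fold.

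Of 13 cell cycle genes, CDKA1 had a log2 signal of 7.70 at B+7 and 9.58 at MG, and the inhibitor gene krp2 had 10.71 at B+7 and 9.21 at MG. The 4 WRKY factors of the list were within 2-fold, while WRKYIId-4, outside the list, was more than 2-fold higher and is given at the end. Of 8 ribosomal and reference genes, 7 differed by between -0.29 and -0.05, and the tubulin gene TUB, with 10.43 at B+7 and 12.19 at MG, was 3.39-fold lower. TUB therefore differed between the stages far more than the actin gene ACT, at -0.14. The ubiquitin control probe sets, which are not in this list, were higher at B+7 by 0.99 to 1.24.

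Markers of other tissues gave the following. The pollen genes PRK1, PRK2, PRK3 and Shy and the seed mannanase MAN2 were below background on both arrays, with log2 signals from 2.82 to 3.48 at B+7 and from 2.92 to 3.48 at MG. In the list for root, xylem and phloem, RSI-1 and LKT1 were higher and FRO1 lower at B+7. In the list for the epidermis, ltpg1 had 5.07 at B+7 and 11.58 at MG and was at least 66.0-fold lower, while TSW12 was below background at both stages. TGAS118, from the flower list, had 11.10 at B+7 and 13.13 at MG. In the same list, LAT61 had 12.31 at B+7 and 11.92 at MG, and TDR6 had 12.05 at B+7 and 12.48 at MG, so these were well above background. The part of a different share of epidermis or other tissue in the differences was not tested.

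**Figure D4:**
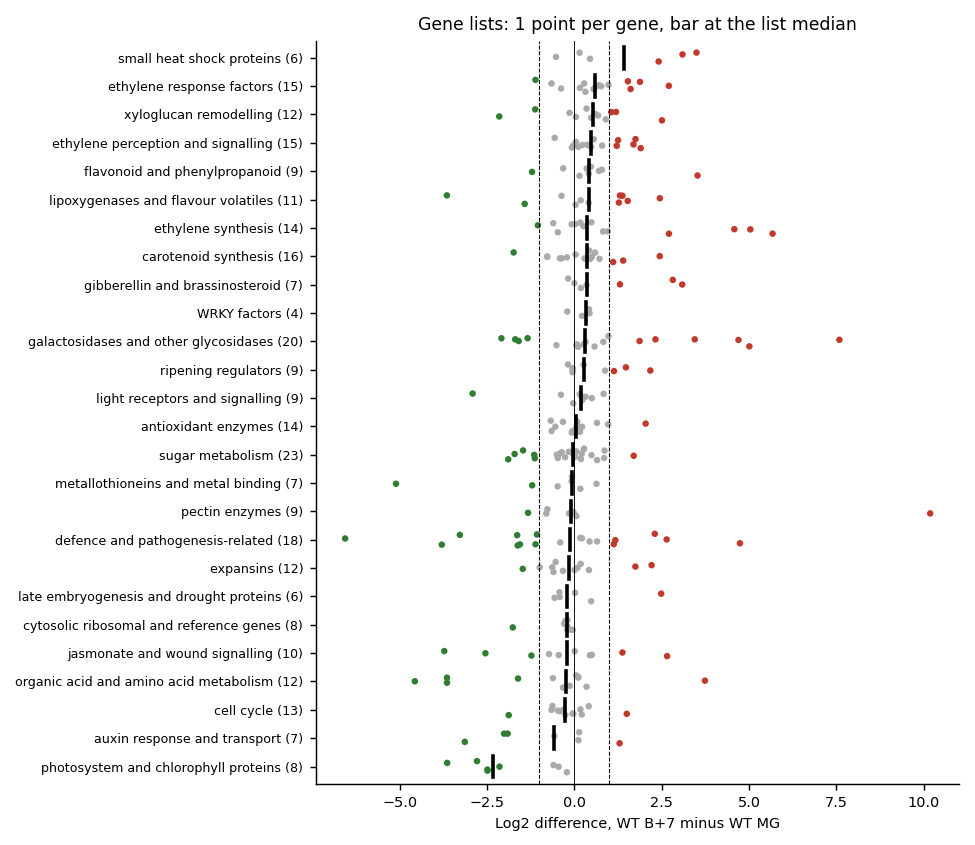
Log2 difference between WT B+7 and WT MG (horizontal axis) for the genes of each list, 1 point per gene with the number of genes in brackets and a black bar at the median. Red and green points are at least 2-fold higher and lower at B+7, dashed lines mark 2-fold, the small heat shock protein list has the highest median (1.43) and the photosystem list the lowest (-2.31).

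Ripening in wild type was set beside ripening in AtJUB1-OX fruits, as AtJUB1-OX B+7 compared to AtJUB1-OX MG, to show where the wild type values were unlike it. With 1 array each, a difference between the genotypes was not tested. Of the 101 genes at least 2-fold higher at B+7 in WT, 60 also reached 2-fold in the same direction in AtJUB1-OX, 36 were within 2-fold and 5 were at least 2-fold lower. Of the 92 genes at least 2-fold lower in WT, 68 were lower in AtJUB1-OX, 23 were within 2-fold and 1 was higher. Over all 803 named genes, 10.5% were at least 2-fold higher, 14.9% at least 2-fold lower and 74.6% within 2-fold in AtJUB1-OX. For PG2 the log2 difference was 10.18 in WT and 7.91 in AtJUB1-OX, for ACS2 5.67 in WT and 4.86 in AtJUB1-OX, and for CAB6A -3.64 in WT and -3.86 in AtJUB1-OX. These differences had the same direction in both genotypes, and the WT value of PG2 rests on a MG signal below background.

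A second set had a smaller stage difference in WT than in AtJUB1-OX and, for EXP1, a MG signal of 10.39 in WT against 6.05 in AtJUB1-OX. E8 differed by 0.82 in WT and by 6.13 in AtJUB1-OX, where it had a log2 signal of 13.07 at B+7 and 6.95 at MG. EXP1 differed by 2.21 in WT and 7.04 in AtJUB1-OX, and loxC by 1.53 in WT and 7.06 in AtJUB1-OX. AAT, 2.47-fold higher at B+7 in WT, differed by 4.72 in AtJUB1-OX. At B+7 these genes had close signals in both genotypes, with 12.60 in WT and 13.09 in AtJUB1-OX for EXP1, and 13.43 in WT and 13.47 in AtJUB1-OX for AAT.

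A further set was higher at B+7 in WT but not in AtJUB1-OX. ACO5 differed by 4.58 in WT and -0.12 in AtJUB1-OX, and GluB by 4.74 in WT and 0.35 in AtJUB1-OX. In AtJUB1-OX fruits GluB had a signal of 9.68 at MG, so the genotypes were unlike at MG and close at B+7, with 10.20 in WT and 10.03 in AtJUB1-OX. For ACO5 they were unlike at both stages, in opposite directions. At MG it had 5.56 in WT, close to background, and 7.52 in AtJUB1-OX. At B+7 it had 10.13 in WT and 7.39 in AtJUB1-OX. TBG5 differed by 1.87 in WT and -0.87 in AtJUB1-OX. Its AtJUB1-OX signal minus its WT signal was 1.52 at MG and -1.22 at B+7 on the log2 scale. FRO1, which is not of this set, was at least 11.9-fold lower at B+7 in WT, where its B+7 signal was below background. It differed by -0.55 in AtJUB1-OX, whose signals were below the background level of the WT arrays at both stages.

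**Figure D5:**
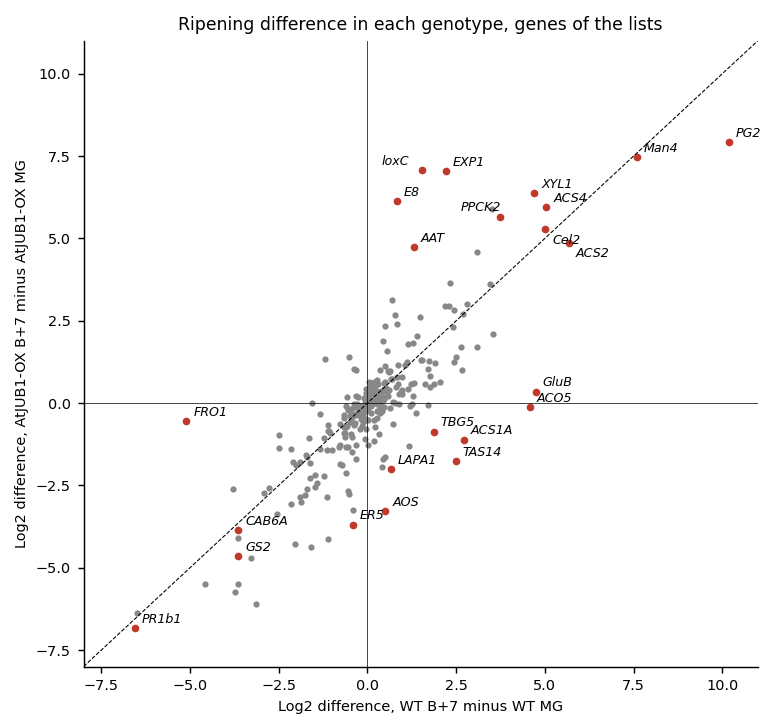
Log2 difference between B+7 and MG in WT (horizontal axis) and in AtJUB1-OX (vertical axis) for the genes in the lists, 1 point per gene, with labelled genes in red and a dashed line of equal difference. E8, EXP1, loxC and AAT lie far above the line, with 6.13, 7.04, 7.06 and 4.72 in AtJUB1-OX, while GluB, ACO5, ACS1A and TAS14 lie below it.

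Of the 20 largest increases and 20 largest decreases among genes above the median signal, 14 were of genes in no list, 6 of them increases and 8 decreases. GSH1 and GP1 are described above. Eix1, a receptor for a fungal xylanase, had a log2 signal of 11.63 at B+7 and 8.29 at MG. The aldehyde oxidase gene AO1 had 11.20 at B+7 and 9.20 at MG. THM27, a MYB transcription factor gene, had 8.61 at B+7 and 11.14 at MG, and the sodium/proton exchanger NHX1 had 10.05 at B+7 and 11.73 at MG. The gene abz1 had 12.01 at B+7 and 9.91 at MG, and the increases of gtsatom and LOC543701 were 2.53 and 2.80 on the log2 scale. For LOC543809, LOC543929, LOC544187, LOC543813 and LOC543968 the differences were -2.18, -2.18, -2.12, -1.96 and -1.70. Among the unnamed probe sets above the median signal, the largest increase was that of a probe set which had 12.55 at B+7 and 7.13 at MG, and the largest decrease that of a probe set which had 8.28 at B+7 and 12.64 at MG. Of the 660 higher and 856 lower probe sets, 548 and 752 carry no gene name here.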

How the data were processed

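The authors hybridized pericarp RNA, extracted with Trizol, to 1 GeneChip Tomato Genome Array per genotype and stage and deposited 1 log2 value for each probe set. GCRMA and RMA are listed in the notes of the submitters, but how, in which order and in which version they were applied is not given in the sources used here. These deposited log2 values were used unchanged, and groups came from the sample labels. The WT difference is B+7 minus MG. It was called at 2-fold, since the study's 1.5-fold cut-off was set for transgenic against wild type. The number of arrays limits the precision. Genes were named with the 2007 platform annotation, and 885 of 909 probe sets with a gene matched RefSeq (assembly SLM_r2.1), used for names only. A gene is represented by its probe set with the highest mean over the WT arrays. Of 32 gene lists, 29 had at least 3 measured genes, and together they hold 304 genes. The carbon fixation list matched 1 gene, annotated as TPI, which was below background, and heat shock factors had 0. The match was by symbol, and what this TPI gene encodes was not checked. Named are the 20 largest increases and decreases above the median signal (log2 9.74), list members, and at most 2 unnamed probe sets per direction. Any other gene was chosen once its value was known. The members and lists were chosen with earlier results of these data known. The counting was tested on simulated data. Alternatives were other scalings, floors, cut-offs, a loess fit (span 0.3), quantile normalization in limma 3.58.1 (R 4.3.3) and the mean of a gene's probe sets. Python 3.11.15, numpy 2.4.6, pandas 2.3.3 and matplotlib 3.10.9 were used.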

Additional observations from a re-analysis of the deposited data

Results flagged for a closer look

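At least 2-fold stage differences of opposite sign in WT and AtJUB1-OX, each from 1 array a stage, were found for 6 genes, and the difference between genotypes was not tested. On the log2 scale, TAS14, a dehydrin gene, was at 2.48 in WT and -1.76 in AtJUB1-OX. ACS1A was at 2.71 in WT and -1.11 in AtJUB1-OX. TSI-1, a stress-induced defence gene, was at 1.17 in WT and -1.29 in AtJUB1-OX. The metallothionein MT2 was at -1.21 in WT and 1.33 in AtJUB1-OX. LOC778302 was at 1.82 in WT and -2.22 in AtJUB1-OX, and LOC543942 was at 1.03 in WT and -1.66 in AtJUB1-OX. These last genes were picked with their values in view. With the spikes set equal the WT values of TSI-1 and LOC543942 were 0.97 and 0.82, under 2-fold, and that of LOC543942 was 0.91 after loess. With a floor at the 25th percentile of signal, the WT values of ACS1A (0.97), TSI-1 (0.19), MT2 (-0.36) and LOC543942 (0) were also under 2-fold. Of these genes, TAS14 had the widest gap at B+7, with log2 signals of 10.87 in WT and 5.80 in AtJUB1-OX, whereas ACS1A and TSI-1 had higher MG signals in AtJUB1-OX, as 5.69 in WT and 8.49 in AtJUB1-OX for ACS1A show.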

How the results depend on the processing

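Counts of probe sets at least 2-fold higher and lower at B+7, 660 and 856, stayed within 1.5 times under median centring (639 and 875), quantile normalization (682 and 836), loess (593 and 919), a floor at the reporter background (600 and 759) and equal spikes (496 and 1064), the last chosen after seeing the data. A floor at the 25th percentile (log2 7.43) gave 465 and 567. The counts were 239 and 248 above the median signal, 1405 and 1432 at 1.5-fold, and 213 and 312 at 4-fold, which follows from fewer probe sets or another cut-off. Among the named genes and all others at least 2-fold different, 60 crossed 2-fold under an alternative, 49 of them under the 25th percentile floor, 20 under the reporter floor and 14 with equal spikes. LOC543932, near background, changed sign, from -1.52 to 0.036, under the reporter floor. That floor is 5.53 at B+7 and 5.07 at MG, so a gene below both levels is set to 0.46. Of 231 list medians under alternatives, 222 moved by less than 0.61, the pooled SD between probe sets of 1 gene. That SD includes the PR1b1 pair, at -6.56 and -0.0091. Apart from the photosystem and small heat shock protein lists, the list medians were themselves smaller than 0.61 in size. This count therefore cannot show that those medians kept their sign. Array signal limits these folds below background, and with 1 array a stage no error between fruits is known. No paired analysis was possible because each group holds 1 sample and the result comes from no test.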

Other observations

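Some of the steepest differences lay outside the gene lists, and these genes were picked with their values in view. The histidine decarboxylase gene hdc had a log2 signal of 13.26 at B+7 and 4.19 at MG, below background, and was at least 292-fold higher in the ripe fruit. In AtJUB1-OX it differed by 7.00. ER1 had 12.24 at B+7 and 4.70 at MG and was at least 143-fold higher, against a difference of 3.73 in AtJUB1-OX. LOC544158 had 11.62 at B+7 and 5.32 at MG, a 79.0-fold difference from a MG signal close to background. In the other direction, LOC544001 had 2.88 at B+7 and 9.91 at MG and was at least 20.8-fold lower in WT, with a difference of -1.23 in AtJUB1-OX, and the ODD gene had 7.02 at B+7 and 11.13 at MG.

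Other genes, picked in the same way, were these. The urease accessory genes URED and UREF were higher at B+7 by 1.48 and 1.23 on the log2 scale. The mitogen-activated protein kinase gene MPK3 was higher at its 3 probe sets, by 1.13 to 1.29, and MAPKKKalpha, a kinase upstream of such cascades, by 1.31. The 14-3-3 genes split, with TFT7 at 12.30 in B+7 and 10.79 in MG fruits and TFT6 at 10.89 in B+7 and 11.97 in MG fruits. GMP and PMM, genes of mannose and ascorbate precursor synthesis, were lower too. GMP had a log2 signal of 10.52 at B+7 and 11.62 at MG, and PMM differed by -1.19, or by -0.68 as the mean of its 3 probe sets. The ovate shape gene OVATE had 9.36 at B+7 and 7.01 at MG, and WRKYIId-4 was 1.44 higher.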
